A study of Mus musculus with 2 samples.

Results

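The BCL2 family genes described here are 10 of the 22911 named genes on the arrays. They are the anti-apoptotic genes Bcl2, Bcl2l1 and Mcl1, the effectors Bax and Bak1, and the BH3-only genes Bcl2l11, Bbc3, Bmf, Bid and Bad. They were found through the RefSeq accession that the array gives for each probe, which matched 20 of 56605 probes to a member. The RNA came from regulatory T cells (Tregs) sorted from mouse kidney as cells positive for CD45, CD3e and CD4 and for FoxP3-hCD2, a reporter that puts human CD2 on the surface of cells that express Foxp3. All cells came from mice with cGN, an antibody-mediated renal injury induced with anti-GBM antibody (against the basement membrane of the glomerulus), and were isolated on day 28.

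RNA was hybridised to 2 single-colour Agilent arrays. By their scanner files, array 2 belongs to anti-GBM lot M and array 1 to lot I. The value table carries the same values under the opposite lots, so the arrays are named by number. According to the labels, severity of disease varied between antibody lots. Both groups therefore carry the reporter and the induced disease, and no array of uninduced kidney or of another sorted cell type was analysed here. Neither the number of mice behind each array, nor pooling, age or sex is given in the sources used here. With 1 array per lot there was no test and no p-value, and every difference describes these 2 arrays.

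BCL2 proteins set whether the outer mitochondrial membrane stays intact. BAX and BAK form the pores that release cytochrome c, BCL2, BCL-XL and MCL1 hold them in check, and BH3-only proteins neutralise the guardians or activate the effectors. In Tregs, signals through the interleukin 2 receptor and MCL1 are known to sustain survival, and BIM, the product of Bcl2l11, is known to oppose it.

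A gene's level is log2 of the ratio of its signal to the 75th percentile over all probes of that array, averaged over the gene's probes that were well above background on both arrays. Brightness depends on the probe, so levels were compared only between arrays and never between genes. A difference is array 2 minus array 1 on the log2 scale. Its spot error is propagated from the error the scanner software assigns to each spot, which leaves out any spread between mice, lots or hybridisations. Repeated spots of one probe within an array varied less than this model allows, with a median SD of 0.035 on array 2 and 0.037 on array 1, against a median spot error of 0.14 on both.

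Markers that define the sort were detected on both arrays. With no array of other cells, their levels do not measure the purity of the sort. Foxp3 was at 4.74 on array 2 and 4.92 on array 1. Cd3e, a chain of the T cell receptor complex, was at 5.58 on array 2 and 5.47 on array 1. The 13 T cell markers had a median difference of -0.02 and a summed level of 10.29 on array 2 and 10.30 on array 1. Markers of other cells were detected as well. Of 14 proximal tubule markers, 13 were higher on array 2, with a median difference of 1.16 and a summed level of 7.63 on array 2 and 6.59 on array 1. The tubular glucose transporter gene Slc5a2 differed by 1.59. All 11 macrophage markers were higher on array 2, with a median of 0.32 and a summed level of 5.367 on array 2 and 5.003 on array 1. Neither array had a probe well above background for Scnn1b of the collecting duct or for the podocyte genes Nphs1, Podxl and Wt1.

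All 10 members had at least 1 probe well above background on both arrays, a property shared by 60.0% of named genes. Of the 20 probes, 18 were well above background on both arrays, as were 52.2% of all probes. The exceptions were 1 probe of Bcl2l11, seen on array 2 only, and 1 probe of Bmf, seen on neither. No member differed by 2-fold or more, where 1.43% of the 13743 genes measured on both arrays did. Bbc3 was the member past 1.5-fold, against 5.97% of all genes in either direction and 5.15% in the direction of higher on array 2. In 7 of 10 members the difference was within 1 spot error, while 28.6% of all genes exceeded it. The remaining members, Bbc3, Bcl2l11 and Bcl2, were all higher on array 2 and past 2 spot errors, as were 7.90% of all genes. Bcl2 passed that limit narrowly, at 2.01 errors. The median difference over the 10 members was 0.08, and over all genes 0.01. Members were higher on array 2 in 9 of 10 cases, compared with 53.8% of all genes, but in 5 of 10 when the arrays were scaled by their spike-in controls, which lowers every difference by 0.06 and leaves 37.9% of all genes higher.

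**Figure D1:**
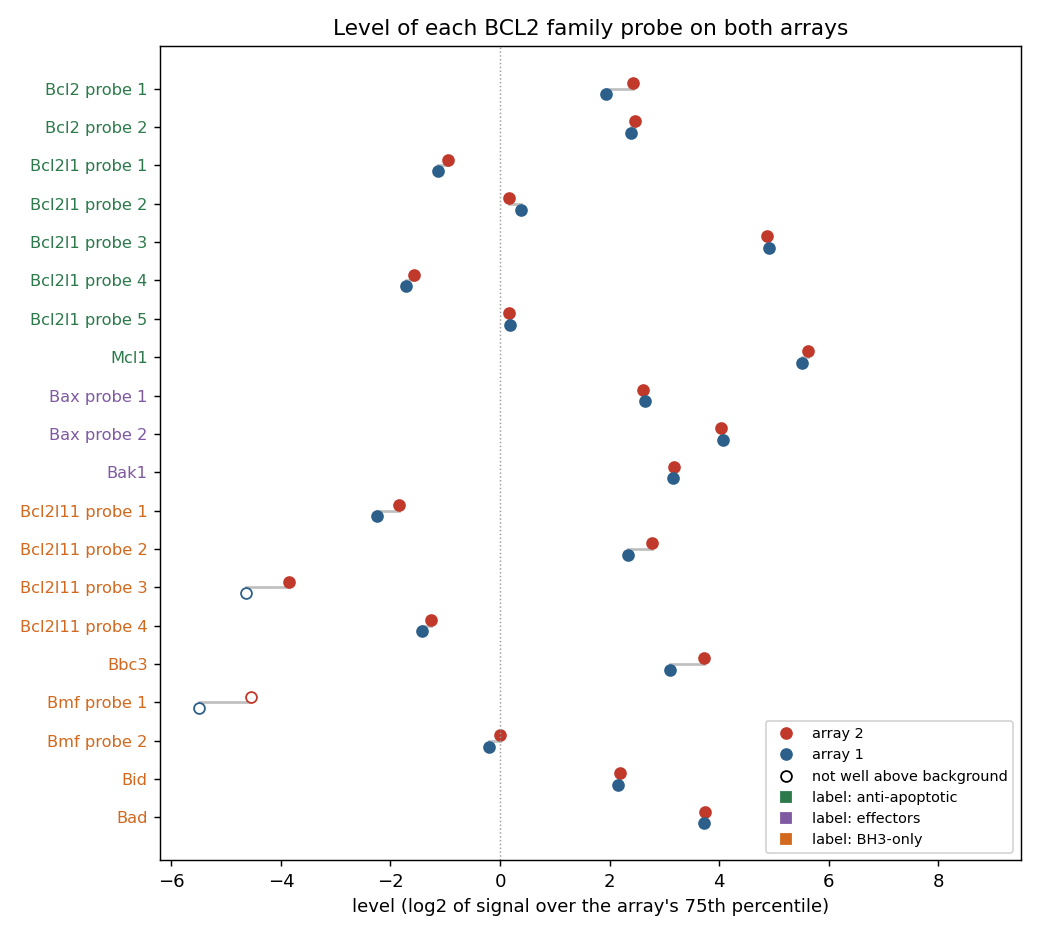
Level of each of the 20 BCL2 family probes, on the log2 scale relative to the 75th percentile, on array 2 (red) and array 1 (blue). Open points were not well above background, and label colours give the role. The Bbc3 probe lies at 3.73 on array 2 and 3.11 on array 1, while the points of Bax, Bak1, Bid and Bad nearly coincide.

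Bbc3, a BH3-only gene, had the largest difference of any member. It encodes PUMA, a protein that p53 induces after DNA damage and that is also expressed on withdrawal of cytokines. Its single probe had a signal of 3697 on array 2 and 2459 on array 1, which gives levels of 3.73 on array 2 and 3.11 on array 1. The difference was 0.62 ± 0.20, or 1.54-fold higher on array 2, with 1.33-fold and 1.77-fold at 1 error to either side. Differences at least as large in either direction were found in 5.34% of all genes. Among the 7793 genes whose mean level exceeded the 75th percentile, to which Bbc3 belongs, 1.71% were past 1.5-fold in either direction. The value rests on 1 spot per array, and among genes with 1 measured probe 8.22% were past 1.5-fold.

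Bcl2l11 encodes BIM, the BH3-only protein that removes activated and cytokine-deprived T cells. Over its 3 measured probes it averaged -0.11 on array 2 and -0.44 on array 1, a difference of 0.33 ± 0.12 (1.25-fold). Its brightest probe, designed to NM_207680, had a signal of 1905 on array 2 and 1446 on array 1, and differed by 0.43 ± 0.20. The other probe to this accession differed by 0.40 ± 0.22, and a probe to NM_001284410 by 0.15 ± 0.21. The last probe, also to NM_001284410, was well above background on array 2 alone. Its signal was 19.3 on array 2 and 11.5 on array 1, a difference of 0.78 ± 0.45. Against the detection floor of array 1, the lowest level of any detected probe there, it was 1.69-fold higher, which is not a strict minimum. All 4 probes of Bcl2l11 thus lay higher on array 2, the last of them not detected on array 1. Across all genes, 14.5% had a difference at least as large as that of the gene in either direction.

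The 3 remaining BH3-only genes differed by no more than 1 spot error. Bmf, whose product is released from the cytoskeleton under stress, was at -0.003 on array 2 and at -0.20 on array 1 by its measured probe, a difference of 0.19 ± 0.20. Its other probe had signals of 11.9 on array 2 and 6.35 on array 1 and was not well above background on either. Bid, which caspase 8 cleaves to join death receptors to mitochondria, had a signal of 1279 on array 2 and 1267 on array 1, a difference of 0.04 ± 0.20. Bad, a BH3-only protein held inactive by phosphorylation under growth factor signals, had a signal of 3747 on array 2 and 3758 on array 1, a difference of 0.03 ± 0.20 after scaling. The signs of Bid and Bad turned to -0.01 and -0.03 under spike-in scaling. The BH3-only group had a median difference of 0.19. With no filter on dim probes it was 0.44, a value that takes in the undetected probe of Bmf and the Bcl2l11 probe not detected on array 1. In the filtered data 2 of the group's 5 genes were 1.25-fold or more higher on array 2, as were 10.6% of all genes. Bcl2l11 lay just over that limit and fell under it in 5 of the alternatives.

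**Figure D2:**
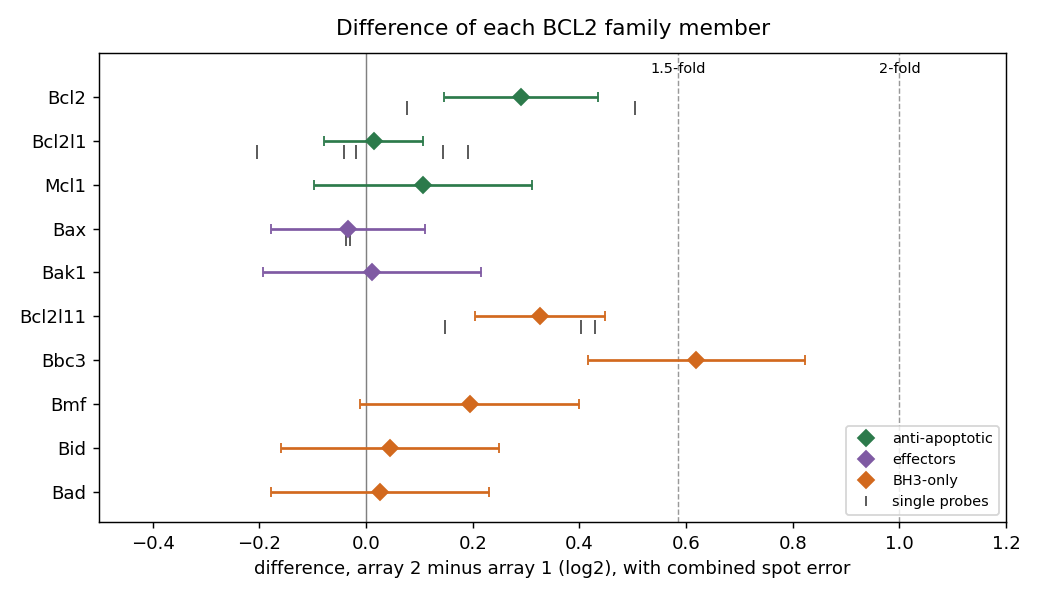
Difference of each member, array 2 minus array 1 on the log2 scale, with the combined spot error as bars. Ticks under a gene mark its single probes and colours give the role. Bbc3 at 0.62, Bcl2l11 at 0.33 and Bcl2 at 0.29 lie more than 2 errors above 0, Bcl2 narrowly at 2.01 errors. The bars of the other 7 members include 0.

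Promoter sequence of the 2 BH3-only genes with the largest differences is shown because FOXO transcription factors, which are active when growth factor and cytokine signals are low, are known to activate both genes. Windows of 250 bases before each listed start were taken from RefSeq (build GRCm38.p6). The listed starts need not include the outermost start of the annotated gene. All 10 members had at least 1 window, 18 in all. The FOXO core GTAAACA, searched on both strands, was found in 3.17% of all 32851 windows and in at least 1 window of 3.54% of genes. Among the members it was found in Bcl2l11 and Bbc3 and in no other, in 2 of the 18 member windows. The Bcl2l11 sequence is the plus strand of chr2:128125788-128126037, the 250 bases before the gene's first annotated start, with the core in capitals 227 bases before that start. The Bbc3 sequence is 30 bases of the plus strand, chr7:16310082-16310111. The core is on the other strand, in capitals, 167 bases before one of the gene's 3 listed starts. The annotated gene begins at base 16308398, so this core lies inside it and past the first of the listed starts.
Bcl2l11: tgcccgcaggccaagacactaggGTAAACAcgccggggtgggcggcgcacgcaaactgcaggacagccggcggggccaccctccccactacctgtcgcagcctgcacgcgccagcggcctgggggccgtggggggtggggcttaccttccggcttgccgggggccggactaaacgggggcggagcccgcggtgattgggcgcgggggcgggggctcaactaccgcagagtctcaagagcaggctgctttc
Bbc3: gtctggcgggttTGTTTACaaacaatgggg
These matches describe the letters in the windows and do not show that a factor bound there. The FOXO genes themselves differed by less than their spot errors. Foxo1 was at 3.82 on array 2 and at 3.83 on array 1 (difference -0.01 ± 0.14). Foxo3 was at -1.49 on array 2 and at -1.62 on array 1 (0.13 ± 0.16), and Foxo4 was at -3.85 on both.

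A half-site of the p53 motif, searched on both strands, was found in 7.13% of all windows and in at least 1 window of 8.2% of genes. Among the 10 members it was found in Bax and Bmf, in 2 of the 18 member windows. The Bax sequence is shown because Bax, like Bbc3, is a known p53 target. It is 30 bases of the minus strand, chr7:45467080-45467109, with the half-site in capitals 201 bases before the listed start.
Bax: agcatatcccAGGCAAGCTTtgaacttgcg
Trp53, which encodes p53, was at 0.21 on array 2 and at 0.18 on array 1, a difference of 0.03 ± 0.20. Cdkn1a, a cell cycle inhibitor and p53 target, differed by -0.03 ± 0.20, and Mdm2, the p53 ligase and target, by -0.08 ± 0.14. Windows of 7 of the 10 members held the SP1 core GGGCGG on either strand, against 35.4% of all genes. Members had 18 windows for 10 genes, against 32851 windows for 27025 genes, and more windows per gene raise such a count. Counted by window, the SP1 core was in 10 of the 18 member windows, against 32.7% of all windows. The members with the SP1 core were Bad, Bax, Bbc3, Bcl2, Bcl2l11, Bid and Mcl1, which include genes on either side of the survival balance.

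The effectors did not differ between the arrays beyond their spot error. Bax, which moves from the cytosol to mitochondria to form pores, averaged 3.32 on array 2 and 3.36 on array 1. Its 2 probes had signals of 4593 and 1703 on array 2 and 4794 and 1786 on array 1, and differed by -0.03 and -0.04. The gene's difference was -0.03 ± 0.14, within 0.88-fold to 1.08-fold at 1 error. Bak1, which encodes the effector that resides in the mitochondrial membrane, had a signal of 2527 on array 2 and 2561 on array 1 from its 1 probe. Its difference was 0.01 ± 0.20 after scaling, and -0.05 with spike-in scaling. Of all genes, 81.3% differed by at least as much as Bax and 93.9% by at least as much as Bak1, in either direction.

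Of the anti-apoptotic genes, Bcl2 had the largest difference, and its probes disagreed. Bcl2 averaged 2.45 on array 2 and 2.16 on array 1, a difference of 0.29 ± 0.14 (1.22-fold). The probe to NM_177410 had a signal of 1512 on array 2 and 1089 on array 1, a difference of 0.50 ± 0.20. The probe to NM_009741 had a signal of 1539 on array 2 and 1491 on array 1, a difference of 0.08 ± 0.20. The 2 accessions are separate RefSeq transcripts of the gene, and the probes lay 0.43 apart. Among the 4001 genes with 2 measured probes, 7.37% had probes at least as far apart, and the median distance was 0.10. With the brightest probe standing for the gene, the difference of Bcl2 was 0.08, so its place above 2 spot errors rests on the probe to NM_177410. That place also depends on the scaling, since the difference was 2.01 errors. It was 0.25 with median scaling, 0.23 with spike-in scaling and 0.26 with no scaling, each under 2 spot errors.

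Mcl1 encodes a short-lived guardian on which Tregs are known to depend. Its 1 probe had a signal of 13688 on array 2 and 12982 on array 1, which gives levels of 5.61 on array 2 and 5.51 on array 1. The difference of 0.11 ± 0.20 was within the spot error. Bcl2l1, which encodes BCL-XL and by alternative splicing the shorter BCL-XS, averaged 0.54 on array 2 and 0.52 on array 1 over 5 probes. Its difference was 0.01 ± 0.09. The probe to NM_001289716 with the strongest signal had 8162 on array 2 and 8580 on array 1, a difference of -0.04 ± 0.20. The 5 probes ranged from -0.20 to 0.19, 3 of them lower on array 2, and each lay within its spot error of 0.

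The balance between opposing members was read as the difference of one member minus that of another. No constant scaling of an array alters this quantity, but it depends on which probes stand for a gene. Each contrast held Bbc3, Bcl2l11 or Bcl2, the members with the largest differences, and Bmf, Bid, Bad and Bak1 entered none. The contrasts therefore do not describe the balance of the whole family. Bbc3 minus Bcl2l1 was 0.60 ± 0.22, Bbc3 minus Mcl1 0.51 ± 0.29 and Bbc3 minus Bcl2 0.33 ± 0.25. Bcl2l11 minus Bcl2l1 was 0.31 ± 0.15. Bcl2l11 minus Bcl2 was 0.04 ± 0.19 and Bax minus Bcl2 was -0.32 ± 0.20. With the brightest probe of each gene, Bcl2l11 minus Bcl2 was 0.35 ± 0.29, Bax minus Bcl2 -0.11 ± 0.29 and Bbc3 minus Bcl2 0.54 ± 0.29. The contrasts with Bcl2 thus moved with its choice of probe, and those of Bcl2l11 and Bax changed in whether they lay within 1 error of 0. By role, the median difference was 0.19 for BH3-only genes, -0.01 for effectors and 0.11 for anti-apoptotic genes. Over the BH3-only genes and effectors together, which are the pro-apoptotic members, it was 0.04. In these bulk samples, a different number of cells and a different amount of RNA per cell cannot be told apart. Proximal tubule, distal nephron and macrophage markers were higher on array 2 by the values given above. Their part in the higher values of Bbc3, Bcl2l11 and Bcl2 was not tested.

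**Figure D3:**
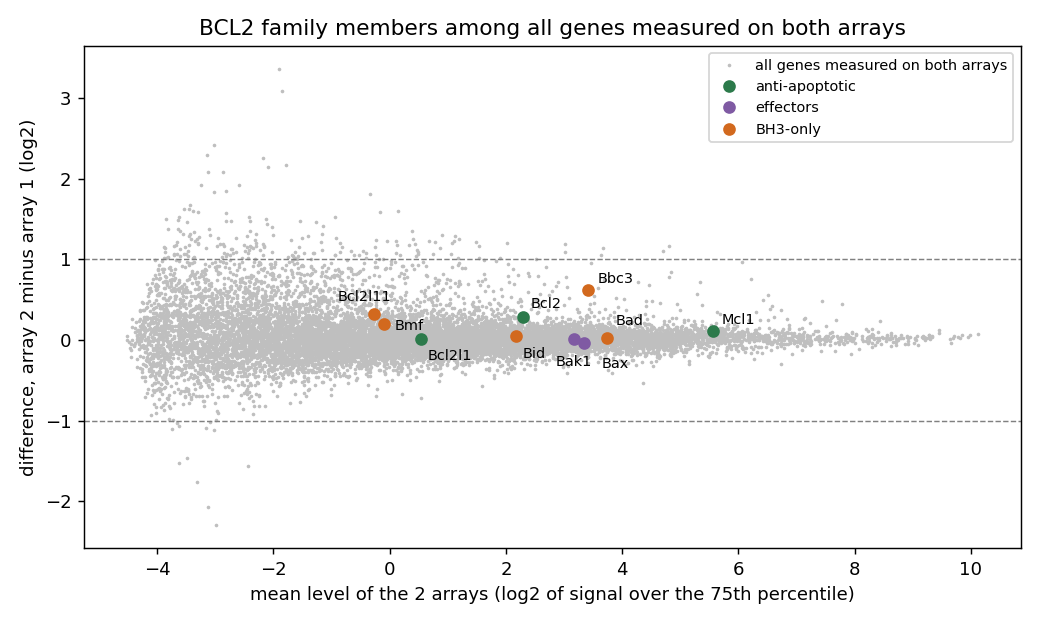
Difference, array 2 minus array 1, against mean level for the 13743 genes measured on both arrays (grey) and the 10 members (coloured by role). Both axes are on the log2 scale and dashed lines mark 2-fold. All members lie inside the lines, and Bbc3 stands above most genes of similar level.

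Of 17 other BCL2 family genes, 13 were measured on both arrays, and 3 of these differed by more than 1 spot error. Their median difference was 0.02, with 7 higher and 6 lower on array 2, and 0 past 2-fold. Pmaip1, which encodes the BH3-only protein NOXA, a partner of MCL1, was at 3.40 on array 2 and at 3.38 on array 1 (difference 0.02 ± 0.20). Among the guardians, Bcl2a1d was at 6.87 on array 2 and at 6.85 on array 1, Bcl2a1c differed by -0.02 ± 0.20, and Bcl2l2, which encodes BCL-W, by -0.06 ± 0.21. The Bcl2a1 copies are nearly identical, so which copy gave the signal is uncertain. Bik differed by -0.09 ± 0.21, Bcl2l12 by 0.03 ± 0.20, Bcl2l13 by -0.04 ± 0.14 and Bcl2l14 by -0.04 ± 0.21.

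The largest differences on this list were those of Bok and Bcl2l15, whose levels lay below the 75th percentile of the arrays. Bok, a relative of the effectors, was at -2.38 on array 2 and at -2.97 on array 1, a difference of 0.59 ± 0.24. Bcl2l15 differed by 0.48 ± 0.19, with its 2 probes at 0.06 and 0.89. The mitophagy receptors Bnip3 and Bnip3l differed by 0.23 ± 0.20 and -0.11 ± 0.14, and the autophagy gene Becn1 by 0.05 ± 0.20. Bcl2l10 and Hrk had no probe well above background on array 2 or array 1.

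Genes that act after the mitochondrial step were measured in full, and none of the 16 was past 1.25-fold, where 14.7% of all genes were in either direction. Their median difference was -0.05, with 11 of 16 lower on array 2. Casp9, the initiator caspase of the apoptosome, was at -0.51 on array 2 and at -0.81 on array 1 (difference 0.30 ± 0.17). Birc5, which encodes survivin and is expressed in dividing cells, differed by -0.21 ± 0.14, and the caspase inhibitor gene Xiap by -0.18 ± 0.15.

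The death receptor genes, 11 of 11 measured, had a median difference of 0.04 and 0 genes past 1.25-fold. The adaptor gene Fadd was at 0.78 on array 2 and at 1.01 on array 1 (-0.23 ± 0.20). Casp8, whose protein cleaves BID, was at 3.29 on array 2 and at 3.51 on array 1 (-0.22 ± 0.20). Fasl, the ligand of Fas, differed by 0.18 ± 0.20 and Traf2, an adaptor of TNF receptors, by 0.12 ± 0.14.

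Inputs to the family were set beside it. The 10 genes of common gamma chain cytokine signalling, which maintains BCL2 and MCL1 in T cells, had a median difference of 0.04, and Il7r was the gene past 1.25-fold. Il7r, the interleukin 7 receptor chain of resting and memory T cells, was at 6.67 on array 2 and at 6.17 on array 1, a difference of 0.50 ± 0.20. Il2ra, the high-affinity interleukin 2 receptor chain, differed by 0.12 ± 0.20, Stat5b by 0.10 ± 0.20 and the kinase gene Pim2 by -0.13 ± 0.21. The 9 p53 and FOXO genes had a median of -0.01, with the largest differences in the p53 relative Trp73 (-0.34 ± 0.25, at -2.99 on array 2 and -2.65 on array 1) and in Mdm4, an inhibitor of p53 (-0.21 ± 0.10). Ddit3, which encodes the stress factor CHOP, differed by 0.12 ± 0.20.

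Genes for the turnover of MCL1 and BIM proteins had a median difference of -0.14 over 8 of 9 genes, 6 of them lower on array 2. Fbxw7 and Btrc, which encode substrate receptors of ubiquitin ligases, differed by -0.19 ± 0.14 and -0.17 ± 0.15. Mapk8, which encodes the kinase JNK1, differed by -0.29 ± 0.13, and Dusp6, a phosphatase for ERK kinases, by 0.21 ± 0.20. Trim17 had no probe well above background. The turnover median was -0.04 with a stricter filter on dim probes and also -0.04 with the brightest probe of each gene.

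**Figure D4:**
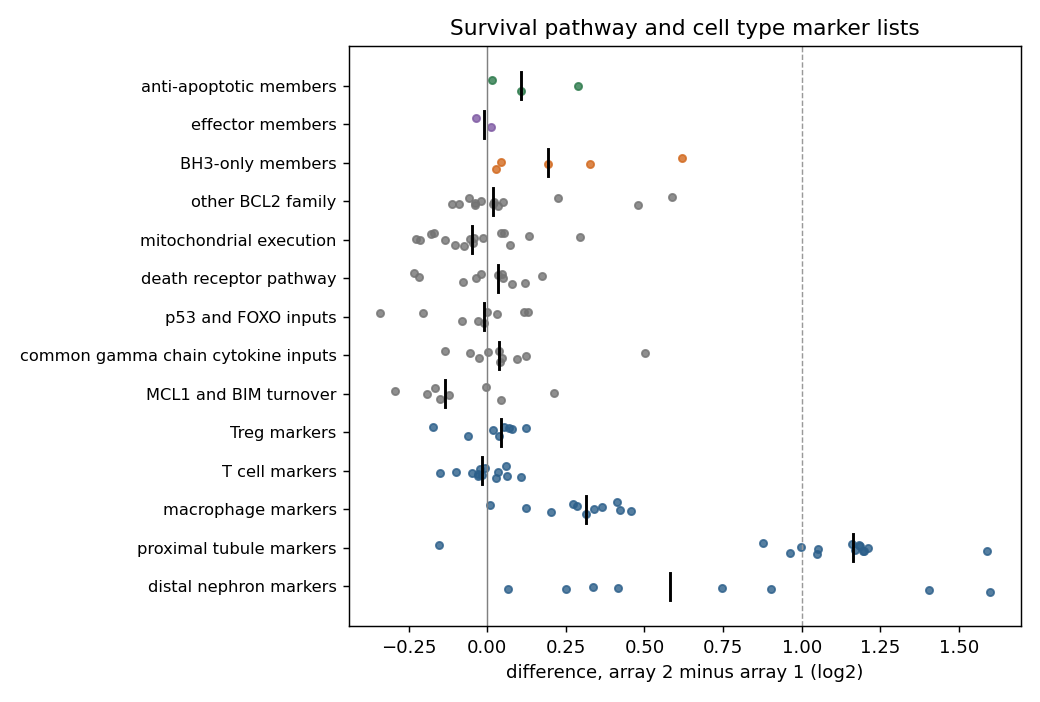
Difference of each gene measured on both arrays, array 2 minus array 1 on the log2 scale, by list, with the list's median as a black bar. Medians of the survival lists lie between -0.14 and 0.19, and those of the macrophage, distal nephron and proximal tubule markers at 0.32, 0.58 and 1.16.

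The differences of Bbc3, Bcl2l11, Bcl2, Mcl1 and Bmf stayed above 0 under other processing of the scanner output. Those of Bcl2 and Bmf moved most with the choice of probe. Over 10 alternatives, Bbc3 lay between 0.56 and 0.67, Bcl2l11 between 0.27 and 0.44, Bcl2 between 0.08 and 0.30 and Mcl1 between 0.05 and 0.15, above 0 in all 10. Bmf lay between 0.14 and 0.57, the highest value coming with its undetected probe included. Bax was below 0 in all 10, between -0.09 and -0.03. Bcl2l1, Bak1, Bid and Bad took both signs, and their sizes stayed at or under 0.06. The alternatives all reused the same arrays, so a sign kept in all 10 is not independent evidence. For Bbc3 and Mcl1, with 1 probe each, keeping outlier spots, changing the filter or taking the brightest probe returned the reported value unchanged. Median, spike-in and no scaling shifted every gene by a constant. The reported differences of Mcl1 (0.11 ± 0.20) and Bmf (0.19 ± 0.20) lay within their spot errors. The value table, with its columns taken by their labels, gave the same sizes with the opposite sign, so which antibody lot had the higher Bbc3 and Bcl2l11 is not settled.

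**Figure D5:**
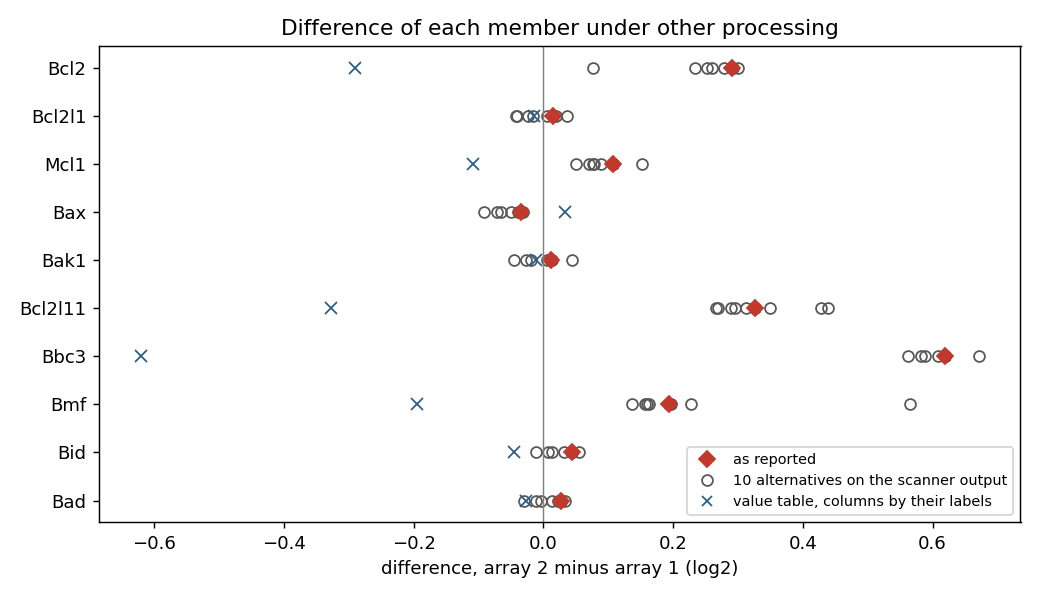
Difference of each member, array 2 minus array 1 on the log2 scale, as reported (red diamonds), under 10 alternatives on the scanner output (open circles) and from the value table with columns taken by their labels (crosses). Bbc3 lies between 0.56 and 0.67 on the scanner output and at -0.62 in the value table.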

How the data were processed

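Scanned images were read with Agilent Feature Extraction 10.7.1.1, according to the submitters' processing notes. The deposited scanner output gives each spot's processed signal intensity, and per the file headers the software fitted spatial and multiplicative detrending. No normalisation between arrays is stated in the sources used here. Raw median intensities and other flags of 0 or 1 are also given. The value table deposited by the authors holds a linear ratio. For probes whose signal reached 300, it equalled the processed signal over a constant for each array (SD of the log2 ratio 0.00019), but under the opposite lot label. The value table is not centred by gene.

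Control spots (3671 per array) and outlier spots (56 on array 2, 75 on array 1) were left out and no spot was saturated. Signals were divided by the array's 75th percentile (280 on array 2, 286 on array 1) and log2-transformed. Probes were named through unversioned RefSeq accessions (GRCm38.p6, used for names and promoters, while the arrays name another build). Of 56605 probes, 32994 received 1 symbol. The fold for a probe detected on 1 array was taken against the detection floor (-4.58 on array 2, -4.62 on array 1). That floor is the lowest level of any detected probe, so the fold is not a strict minimum. Scan, protocol and software fields were the same on both arrays. The scanner's quality summary was in range for array 1 and asked for evaluation of array 2. The number of arrays limits the precision. Python 3.11.15, statsmodels 0.14.6 and limma 3.58.1 (normexp, offset 50) were used, and the gene summary was tested on simulated data. Normexp used the median signal column.

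Members and lists were chosen with earlier results of these data known. Named were all members, detected genes of the other BCL2 family list, up to 4 genes per further list and up to 2 per marker list by size of difference, Foxp3 and Cd3e. Foxo1, Foxo4, Trp53, Cdkn1a, Mdm2 and genes named as not detected were named after their values were seen. Limits of 1.5-fold were planned and 1.25-fold and the contrasts under each alternative were added after seeing the data. The contrasts between members were themselves not among the planned results. The marker lists not described, or described only in part, in the report had medians of 0.34 (neutrophil, 4 of 7 genes measured), -0.33 (B cell, 5 of 6), -0.09 (CD8 T and NK cell, 7 of 8), 0.00 (endothelium, 6 of 7), 0.35 (fibroblast, 3 of 6), -0.05 (podocyte, 1 of 5), 0.58 (distal nephron, 8 of 9) and 0.05 (Treg, 8 of 8). Some genes that the naming rule selects are not reported here.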

Additional observations from a re-analysis of the deposited data

How the results depend on the processing

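No paired analysis was possible because each lot has 1 array, and for the same reason no replicate could be left out. All 10 members stayed measured under each filter tried except when every probe of a gene had to be well above background, which left 8, a count within 1.5 times the reported one. No member passed 2-fold under any alternative run. Across the alternatives, 103 member differences, 104 medians and 88 contrasts moved by no more than their spot error, and of these 16, 13 and 3 changed sign. For a median, the spot error used was that of the mean over the same genes. With spike-in scaling, 5 members were higher on array 2, the median of all members was 0.0193, and the medians were -0.0371 for other BCL2 family genes, -0.107 for mitochondrial execution, -0.0215 for death receptors and -0.192 for MCL1 and BIM turnover. The members past 1.25-fold were 1 with normexp, median scaling, spike-in scaling, no scaling and quantile normalisation. With no filter on dim probes, the BH3-only median was 0.44. The turnover median was -0.0730 with normexp, -0.0377 with the stricter filter and -0.0410 with the brightest probe. In the value table, with columns taken by their labels, 1 member was higher on array 2, and the differences were -0.29 for Bcl2, -0.33 for Bcl2l11 and -0.62 for Bbc3. The contrasts there were -0.329 for Bbc3 minus Bcl2, -0.512 for Bbc3 minus Mcl1, -0.606 for Bbc3 minus Bcl2l1, -0.313 for Bcl2l11 minus Bcl2l1, 0.325 for Bax minus Bcl2 and -0.293 for Bbc3 minus Bcl2l11. There the medians were -0.0765 for all members, -0.108 for anti-apoptotic, -0.194 for BH3-only and -0.0452 for all pro-apoptotic members, 0.0496 for mitochondrial execution, -0.0357 for death receptors, -0.0395 for cytokine inputs and 0.135 for turnover. Over all genes, 184 were 2-fold or more higher and 12 lower on array 2. These counts were 28 and 0 with normexp, 648 and 399 with no filter, 84 and 1 with the stricter filter, 13 and 184 in the value table, 708 and 112 at 1.5-fold, and 9 and 2 at 4-fold. Apart from the value table, which turns the sign by its labels, the causes were not tested. Dim probes limit what is known of Bmf and of the fourth Bcl2l11 probe.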

Other observations

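Probes of one gene disagreed in several survival genes besides Bcl2. These genes were chosen after their values were seen. The 3 probes of Mapk8 ranged from -0.78 to 0.04, the 4 probes of Marchf5, which encodes a mitochondrial ubiquitin ligase, from -0.41 to 0.07, and the 2 probes of Fas from -0.11 to 0.27. The 2 probes of Casp9 were at 0.15 and 0.44. A gene average over such probes describes no single transcript.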
